A study of Oryctolagus cuniculus with 36 samples.

Results

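The embolized cranial liver lobe was compared with the non-embolized caudal lobe of rabbits that had received vehicle, with 6 libraries from each lobe, 12 of the 36 libraries of the study. Genes were included when their normalized count, a read count divided by 1 size factor per library, reached 10 in at least 6 of these 12 libraries. Of 9419 genes listed, 8207 met this rule. The 167 genes that reached 10 in exactly 6 libraries had a median level of 13.7, and the 147 left out with 5 such libraries had 11.0. The animals were wild-type rabbits, and the other libraries of the study came from the same lobes after obeticholic acid, an agonist of the bile acid receptor FXR, and from terminal ileum after either treatment. The labels call the embolized lobe atrophic and the non-embolized lobe hypertrophic; they state no time after embolization, age or sex. Every embolized library is cranial and every non-embolized one caudal, so an effect of embolization and a difference between lobe positions cannot be told apart.

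The portal vein brings the liver blood from the gut that carries nutrients, hormones and bile acids returned from the ileum. Blocking its branches to some lobes leaves these lobes with arterial blood and sends the portal flow to the others. The deprived lobes lose mass as hepatocytes shrink and die, while hepatocytes in the others enlarge and divide, which is why the procedure is used before large liver resections.

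The files identify genes by Ensembl ID and pair none of them with a name, and the RefSeq gene table used here matched 0 of the 9419 IDs. Genes are therefore described as groups, and at most 2 that rose and 2 that fell appear by ID. Markers of hepatocytes and other liver cells, and of bile acid, cell cycle or matrix pathways, were not analysed here for the same reason. The libraries were made from bulk lobe tissue, so fewer cells of a type and less RNA per cell cannot be told apart. Reads recovered per library, in M (megareads), averaged 13.8 ± 1.22 M in the embolized lobe and 20.3 ± 4.38 M in the non-embolized lobe (SD, n = 6 each). Nothing in the labels assigns a library to its own animal, so the p-values reflect the spread among libraries, part of which could be technical.

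In the embolized lobe 932 genes (11.4% of those tested) were higher and 1188 (14.5%) were lower at an adjusted p under 0.05, by limma-trend on log2(normalized count + 1) with Benjamini-Hochberg adjustment over all 8207 genes. Together these were 25.8% of the genes, and the falls outnumbered the rises. The split moved with the scaling: with every library brought to the same total, 566 genes were higher and 1303 lower, so higher genes made up 30.3% of the calls, against 44.0% with the authors' size factors. It also moved with the method. On the recovered reads edgeR called 1000 higher and 1180 lower. DESeq2 called 1195 higher and 1213 lower, a nearly even split with 49.6% higher. The median log2 fold change of all genes, embolized over non-embolized throughout, was 0.02 with the authors' size factors and −0.06 with equal totals.

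Most differences were modest. The median size among called genes was 0.87 on the log2 scale for rises and 0.85 for falls. Changes of at least 2-fold were seen in 394 of the higher and 489 of the lower genes, and changes of at least 4-fold in 127 and 182. The largest changes were more often falls: 19 genes rose and 76 fell at least 8-fold, as judged after 1 was added to each value, which makes changes of low genes look smaller. The standard error of a log2 fold change had a median of 0.23 over all genes.

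Groups that did not overlap were frequent among the called genes. All 6 embolized libraries lay above all 6 non-embolized libraries in 282 of the 932 higher genes, and below them in 495 of the 1188 lower genes. Over all genes tested, 3.56% lay wholly above and 6.19% wholly below, 9.75% together. Differences taken within replicate numbers had the same sign in all 6 numbers for 745 of the higher and 1058 of the lower genes; over all genes this held for 14.4% upwards and 17.7% downwards. These counts come from the libraries that made the calls and describe them only.

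Rises and falls were spread over the whole range of abundance, with a different balance at different levels. Among the 984 genes with a mean normalized count under 30 over the 12 libraries, the embolized lobe had 101 higher and 83 lower. Falls prevailed in the middle: of 789 genes between 1000 and 3000, 84 were higher and 177 lower, and their median log2 fold change was −0.09. Among the 168 genes at 10000 or more, 30 were higher and 25 lower, and the median was 0.09. The share of genes called grew with abundance from 18.7% in the lowest band to 36.8% between 3000 and 10000 and was 32.7% at 10000 or more, while the median standard error fell from 0.45 under 30 to 0.17 between 1000 and 3000. The size of the called changes also fell up to that band, with a median of 1.69 on the log2 scale under 30 and 0.64 between 1000 and 3000. Above it both were larger again. Between 3000 and 10000 the median size was 0.75 and the median standard error 0.19. At 10000 or more they were 0.84 and 0.21.

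**Figure D1:**
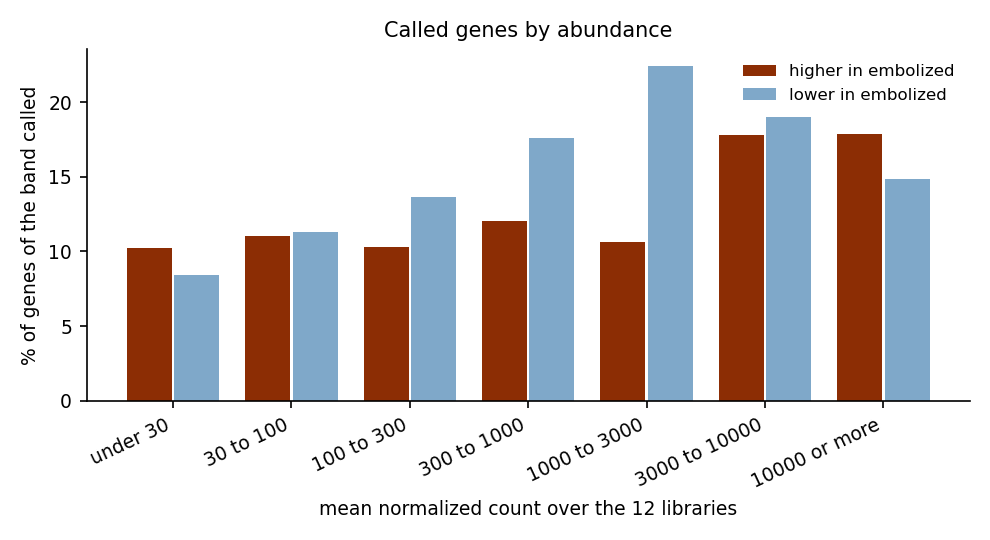
The plot shows the share of genes called higher (dark bars) and lower (light bars) in the embolized lobe, in percent of the genes of each band of mean normalized count over the 12 libraries. Falls exceed rises most between 1000 and 3000, at 22.4% of genes against 10.6%. The order turns under 30, at 8.43% against 10.3%, and at 10000 or more, at 14.9% against 17.9%.

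Genes were also ranked by their level in the 12 obeticholic acid liver libraries, which add to the shared spread of the fit but not to the fold changes under vehicle. Of the top 100 genes 18 were higher in the embolized lobe, 12 were lower and 70 did not pass. Over all genes 11.4% were higher and 14.5% lower, so rises outnumbered falls in the top 100 but not over all genes. At least 2-fold changes among these 100 comprised 3 rises and 8 falls, and their log2 fold changes ran from −2.16 to 2.90. In the top 10 genes, 1 rose and 9 did not pass. The share of reads in the single most abundant gene was 14.6 to 20.9% in the embolized lobe and 14.9 to 19.0% in the non-embolized lobe. The 100 most abundant genes of each library took 67.9 ± 4.44% and 66.2 ± 1.67% of the reads (SD, n = 6 each), a difference that did not pass a two-sided exact permutation test over the libraries (p = 0.405, adjusted p = 0.543 over 6 measures). After all libraries were thinned to the depth of the shallowest, the number of genes with a read was 8968 ± 189 in the embolized lobe and 8915 ± 88.6 in the non-embolized lobe, which did not pass either (exact permutation p = 0.543, adjusted p = 0.543).

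The 2 largest rises and 2 largest falls among abundant genes were taken from called genes whose mean normalized count was 500 or more and whose difference had the same sign in all 6 replicate numbers. This rule left 245 higher and 417 lower genes to choose from, and since it used these libraries, the lack of overlap below is a description. ENSOCUG00000000568 was the more abundant of the rises. It had a lowest, median and highest normalized count of 29164, 116147 and 215958 in the embolized lobe, against 6553, 13317 and 17670 in the non-embolized lobe. Its groups did not overlap, and within replicate numbers it was higher in the embolized lobe by 1.85 to 4.03 on the log2 scale. Its log2 fold change was 2.90 ± 0.48 (SE, limma adjusted p = 9.98e-05). By its mean share of reads it belonged to the genes enriched in liver over ileum. Its ileum values ran from 793 to 41906 on that table's own scale. The liver share averaged both lobes after obeticholic acid. There its normalized count was 49678 to 288240 in the embolized lobe, against 4747 to 22229 in the non-embolized lobe. The embolized lobe thus weighed most in this class, and enrichment in the non-embolized lobe alone was not tested.

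ENSOCUG00000027219 had a lowest, median and highest normalized count of 226, 923 and 2571 in the embolized lobe, against 30.5, 125 and 190 in the non-embolized lobe. The lowest value of each lobe came from replicate 5, and the groups did not overlap. Its log2 fold change was 3.12 ± 0.56 (SE, limma adjusted p = 0.000218). It belonged to the genes enriched in ileum, where its values ran from 742 to 59851 on that table's own scale.

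ENSOCUG00000016538 had a lowest, median and highest normalized count of 19.2, 69.4 and 262 in the embolized lobe, against 748, 922 and 1109 in the non-embolized lobe. The non-embolized libraries lay close together, and the embolized ones were spread over an order of magnitude, with replicate 4 lowest and replicate 5 highest. Its log2 fold change was −3.62 ± 0.39 (SE, limma adjusted p = 5.59e-07). It was neither liver- nor ileum-enriched.

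ENSOCUG00000005666, a liver-enriched gene, had a lowest, median and highest normalized count of 10.3, 129 and 266 in the embolized lobe, against 2120, 3998 and 5192 in the non-embolized lobe. Its ileum values ran from 0 to 3934 on that table's own scale. The liver share averaged both lobes after obeticholic acid, where the mean was 788 in the embolized and 6583 in the non-embolized lobe. The non-embolized lobe thus weighed most in this class, and enrichment in the embolized lobe alone was not tested. The fall of this gene within replicate numbers was 3.28 at the least and 7.55 at the most on the log2 scale, the largest in replicate 2. The log2 fold change was −5.28 ± 0.52 (SE, limma adjusted p = 2.83e-07). It was −5.67 in replicates 1 to 3 and −4.89 in replicates 4 to 6 (limma adjusted p = 0.00105 and 0.000199). The gene was picked for 1 sign in all 6 numbers, so a fall in both runs was set by the choice.

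**Figure D2:**
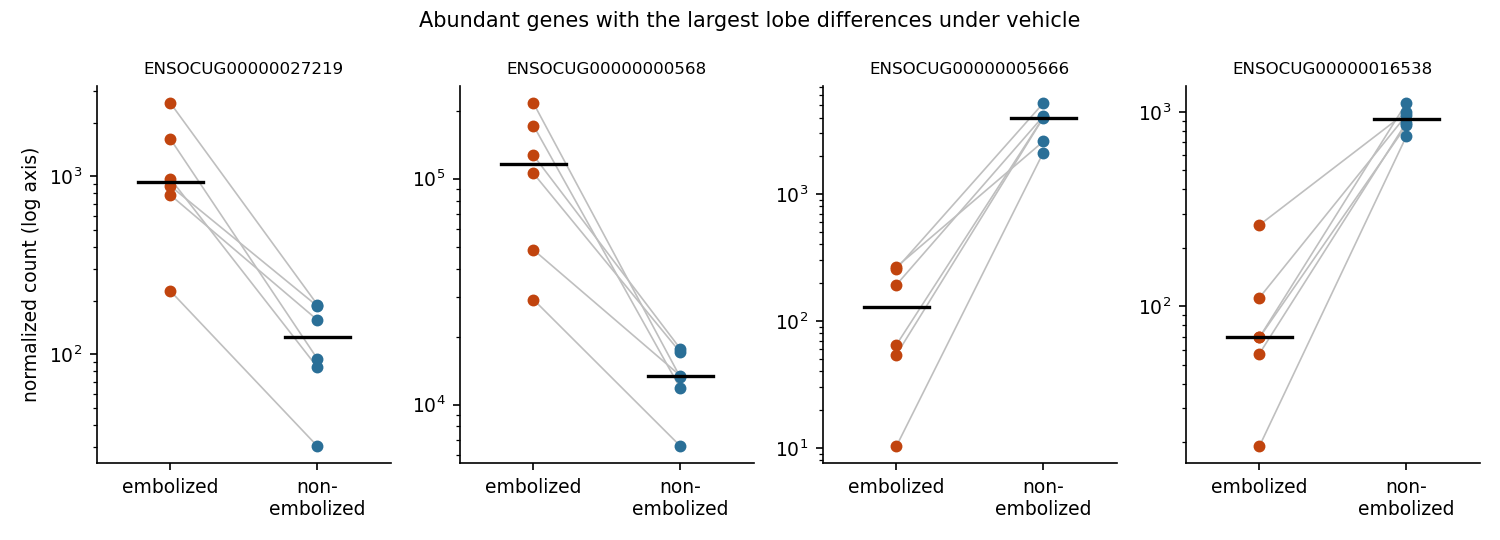
Points show the normalized count (log axis) of each of the 6 libraries per lobe for the 4 genes, black bars the medians, and grey lines join libraries of the same replicate number. Every line runs the same way within a gene, and in none of the 4 genes do the lobes overlap.

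The calls were then looked at by tissue. Genes were classed by their mean share of reads in the 12 obeticholic acid liver libraries, both lobes counted equally, against the 12 ileum libraries. None of these sets a fold change under vehicle, although the obeticholic acid liver libraries add to the shared spread of the fit. The ileum and liver tables were normalized separately, and no untreated, non-embolized animal is among the libraries, so the classes are descriptive. A gene could also count as liver-enriched mainly through the lobe in which it was higher. Of the tested genes 380 were at least 10-fold enriched in liver and 551 at least 10-fold enriched in ileum, while 7276 were in neither class.

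Liver-enriched genes moved in both directions. In the embolized lobe 62 (16.3%) were higher, 74 (19.5%) were lower and 244 did not pass, against 11.4% and 14.5% over all genes. Their median log2 fold change was 0.11. They took a lowest, median and highest share of 49.0, 55.1 and 59.0% of the reads in the embolized lobe, against 47.5, 52.2 and 54.7% in the non-embolized lobe, and the ranges overlapped. Without the 50 most abundant of them the shares were 5.93, 6.64 and 7.36% in the embolized lobe and 6.73, 7.19 and 7.78% in the non-embolized lobe. By abundance in the obeticholic acid livers, falls prevailed between 100 and 1000, where 12 of 102 liver-enriched genes were higher and 26 were lower, and rises below 100, where 13 of 65 were higher and 3 were lower.

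Among ileum-enriched genes detectable in liver, rises outnumbered falls with the authors' size factors. In the embolized lobe 114 of the 551 (20.7%) were higher and 40 (7.26%) were lower, and 87 of the rises were at least 2-fold. Their median log2 fold change was 0.30, against 0.01 for genes in neither class. With equal totals 68 were higher and 35 lower, and with equal totals and the class widened to 4-fold enrichment the order turned, with 142 higher and 149 lower. Most of the class was of low abundance: 379 of the 551 had a mean under 100 in the obeticholic acid livers, where 20.6% were higher and 4.75% lower, with a median of 0.42. Liver-enriched genes of that band were alike in these values, with 20% higher, 4.62% lower and a median of 0.47 over 65 genes. Of the 14 ileum-enriched genes between 1000 and 10000, 3 were higher and 6 were lower. Ileum-enriched genes supplied 37 of the 127 genes that rose at least 4-fold, which is 29.1%, and 1 of the 182 that fell at least 4-fold, which is 0.549%; they made up 6.71% of all genes tested. The 4-fold rises were 14 of 76 with a pseudocount of 5, and 9 of 38 among genes that reached 10 in all 12 libraries. A gene could pass the minimum level through the lobe in which it was higher, and 799 of the 1350 listed ileum-enriched genes did not pass it, so the counts cover only those detectable here.

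The ileum-enriched rises differed between replicate numbers. The median log2 difference of the class was 0.97 in replicate 5, 0.56 in replicate 1, 0.47 in replicate 3 and 0.21 in replicate 6, and it was −0.02 in replicate 4 and −0.11 in replicate 2. In replicate 5, 272 of the 551 genes were at least 2-fold higher and 25 at least 2-fold lower in the embolized lobe. In replicate 2, 65 were at least 2-fold higher and 106 at least 2-fold lower. Their summed share of reads had a lowest, median and highest value of 0.389, 0.463 and 1.09% in the embolized lobe, the highest in replicate 5, against 0.504, 0.551 and 0.604% in the non-embolized lobe. The summed share was thus below every non-embolized library in 3 of the 6 embolized libraries, replicates 2, 4 and 6. Without embolized replicate 5, 92 genes of the class were higher and 48 were lower, and the median was 0.18.

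**Figure D3:**
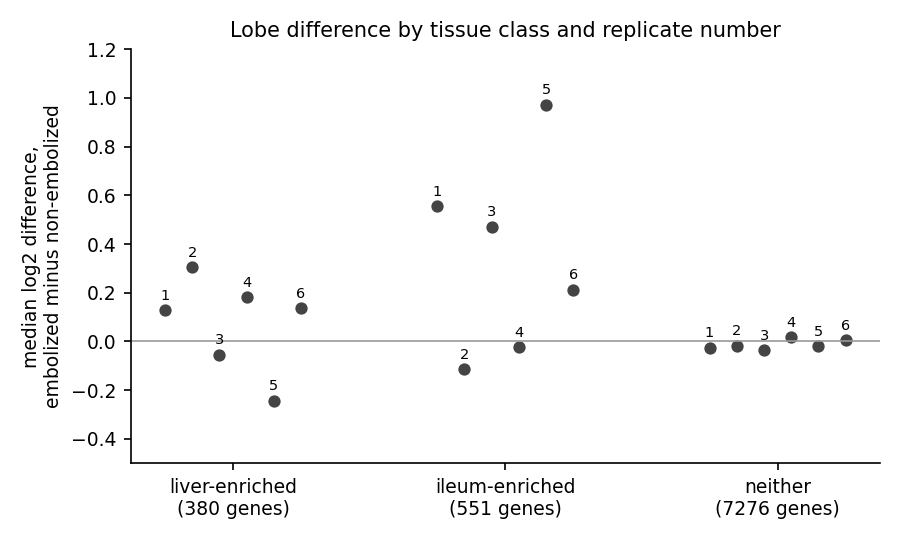
Each point is the median log2 difference, embolized minus non-embolized, over the genes of a class within a replicate number, which stands above the point. Ileum-enriched genes run from −0.11 in replicate 2 to 0.97 in replicate 5, liver-enriched genes from −0.24 in replicate 5 to 0.31 in replicate 2, and the medians of the rest lie near 0.

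Few genes reached a working level in one lobe only. In 15 genes all 6 embolized libraries reached a normalized count of 10 and no non-embolized library did. Their means were 14.7 to 83.9 in the embolized lobe and 1.84 to 7.49 in the non-embolized lobe. The opposite pattern held in 9 genes, with means of 1.495 to 5.85 in the embolized lobe and 16.9 to 73.4 in the non-embolized lobe. Under vehicle, where the rule chose them, 13 of the 15 and 9 of the 9 were called. In the lobes after obeticholic acid the same rule held again in 5 of the 15 and 2 of the 9 genes. There 12 and 7 were called in the same direction, in a fit that shares its spread with that under vehicle. Over all genes, 15.6% were called higher and 16.3% lower after obeticholic acid.

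Most genes varied more among the embolized libraries. The SD of log2 values over the 6 libraries had a median of 0.43 in the embolized lobe and 0.32 in the non-embolized lobe, and it was larger in the embolized lobe for 5949 genes (72.5%). This held in every band of abundance, from 70.3% of genes between 100 and 300 to 87.5% at 10000 or more. Genes of a library vary together, so the number of genes is not a test. As a single value per library, the median distance from the other libraries of the lobe was 0.34 ± 0.09 in the embolized lobe and 0.27 ± 0.04 in the non-embolized lobe on the log2 scale (SD, n = 6 each), a difference that did not pass (two-sided exact permutation p = 0.115, adjusted p = 0.543 over 6 measures). Embolized libraries were also shallower, and the part of depth in the spread was not tested.

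Libraries of a lobe departed from each other unequally. Measured against the median of the other 5 libraries of its lobe, genes off by over 2-fold numbered 1444, 1157 and 1389 in embolized replicates 4, 5 and 6, against 483, 683 and 558 in embolized replicates 1, 2 and 3. In the non-embolized lobe they numbered 412 to 827. Replicate 4 of the embolized lobe departed mostly downwards, with 1130 genes below and 314 above, and replicate 6 likewise, with 967 below and 422 above. Of these, 354 genes lay below in both, which is 31.3% of those of replicate 4 and 36.6% of those of replicate 6. Departures were shared in the non-embolized lobe too, where 431 genes lay above in both replicates 2 and 3, 64.5% and 64.3% of those of each. Embolized replicate 5 departed upwards, with 912 genes above and 245 below. Ileum-enriched genes, 6.71% of all genes, made up 21.2% of its 912 high genes and 18.2% of the 1130 low genes of embolized replicate 4. A similar share was seen in some other lists, at 21.9% of the high genes of embolized replicate 3 and 20.1% in non-embolized replicate 2. It was 22.2% of the low genes of non-embolized replicate 5. Other lists had less, at 3.32% of the high genes of embolized replicate 6 and 4.46% of those of embolized replicate 4. Among the low genes of embolized replicates 3 and 5 it was 4.60% and 4.90%.

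**Figure D4:**
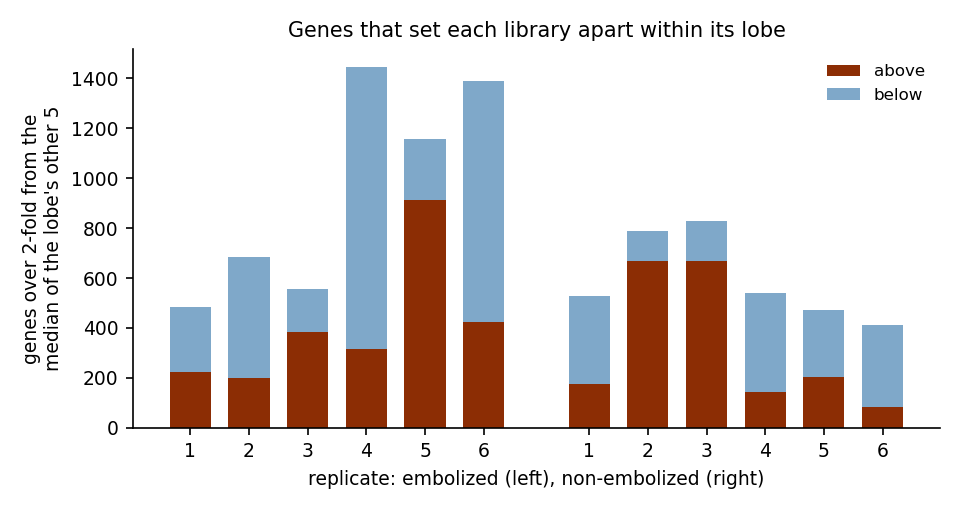
Bars count the genes of each library that lie over 2-fold above (dark) or below (light) the median of the lobe's other 5 libraries, by replicate number. Embolized replicates 4 to 6 have 1157 to 1444 such genes and every other library 412 to 827.

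On principal components of the 12 libraries the lobes parted along the first, which carried 38.9% of the variance, with embolized libraries between 9.55 and 48.4 and non-embolized libraries between −51.7 and −10.1. Embolized replicate 4 lay nearest to the other lobe. The second component held 21.8% and spread libraries within the lobes, from −38.8 in replicate 5 to 52.0 in replicate 6 of the embolized lobe and from −39.1 in replicate 3 to 15.2 in replicate 4 of the non-embolized lobe.

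**Figure D5:**
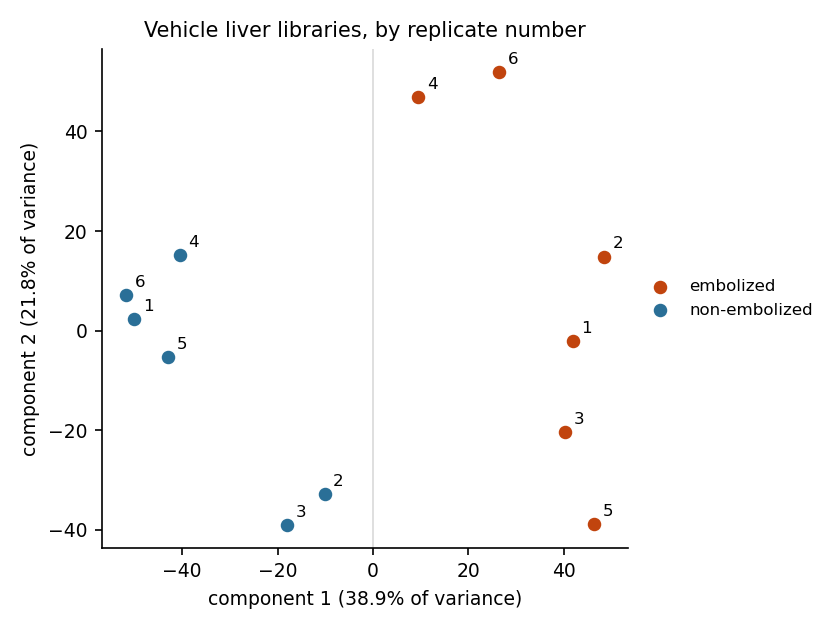
Each point is a vehicle liver library, labelled by its replicate number, on the first 2 principal components of log2(normalized count + 1) over 8207 genes. The lobes lie on opposite sides of 0 on the first component, and embolized replicates 4 and 6 stand highest on the second.

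The replicates fall into 2 runs of library numbers, 1 to 3 and 4 to 6, and the comparison was repeated within each. Replicates 1 to 3 gave 447 higher and 658 lower genes, and replicates 4 to 6 gave 184 higher and 382 lower genes. The runs share no library. Both called 116 of the same genes higher, which is 26.0% of the list from 1 to 3 and 63.0% of that from 4 to 6, and 303 of the same genes lower, which is 46.0% and 79.3%. No gene was called in opposite directions. Changes of at least 2-fold in both runs comprised 87 of the shared rises and 217 of the shared falls.

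Single libraries moved the totals. When each of the 12 libraries was left out in turn, 1709 to 2491 genes were called, and falls outnumbered rises each time. Of the 932 higher genes 594 (63.7%), and of the 1188 lower genes 850 (71.5%), were called every time. The rest lost their call in at least 1 of these fits, each of which also had 1 library fewer. The replicate numbers were taken to pair the lobes, a reading that no label states. Deviations of embolized replicates 1 and 5 correlated more with another number (0.22 and 0.33) than with their own (0.15 and 0.22). A fit with the numbers as a block called 918 of the 932 and 1175 of the 1188 again. On the recovered reads edgeR called 882 and 1142 of them, and DESeq2 926 and 1162.

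The same lobes were also sampled after obeticholic acid, in 6 further libraries each. Of the genes called under vehicle, 617 of the 932 higher and 868 of the 1188 lower genes were called in the same direction there. The shared genes are 66.2% and 73.1% of the vehicle lists and 48.2% and 65.1% of the obeticholic acid lists, in a comparison that called 15.6% of all genes higher and 16.3% lower, 31.8% together. Both comparisons come from a fit with a shared spread. The vehicle-called genes had median log2 fold changes of 0.81 (higher) and −0.77 (lower) between the lobes after obeticholic acid, against 0.87 and −0.85 under vehicle, where they had been selected. The difference of the lobe effect between treatments passed in 0 genes (limma-trend, smallest adjusted p = 0.565), and 598 genes had an unadjusted p under 0.05, which is 7.29%.

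Among the genes named above, ENSOCUG00000005666 had a lowest, median and highest normalized count of 319.8, 725 and 1376 in the embolized lobe after obeticholic acid, against 5214, 6845 and 7249 in the non-embolized lobe. Its log2 fold change there was −3.19 ± 0.52, which is 2.09 ± 0.74 above that under vehicle (SE, limma adjusted p of the difference 0.595). ENSOCUG00000000568 changed by 3.70 ± 0.48, ENSOCUG00000027219 by 2.82 ± 0.56 and ENSOCUG00000016538 by −2.88 ± 0.39 after obeticholic acid. The differences from vehicle for these 3 genes were 0.80 ± 0.68, −0.31 ± 0.79 and 0.74 ± 0.55 (SE, limma adjusted p 0.782 to 0.947).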

How the data were processed

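Strand-specific libraries of total RNA were read as 150-base pairs, per the labels' protocols. The submitters' processing notes name STAR, RSEM and DESeq2; versions, settings, build and annotation: not given in the sources used here. In the files, the deposited signal is a normalized count, for which the authors scaled the reads of each gene by a size factor of the library, separately for ileum and liver. Among the liver values 100% were whole multiples of the smallest step of their library within a tolerance of 0.01, so reads could be recovered. The smallest chi-square per degree of freedom between 2 vehicle libraries of a lobe was 38.7, so none agreed within sampling noise.

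The test was limma-trend (limma 3.58.1, R 4.3.3) on log2(normalized count + 1), with the 24 liver libraries fitted as 4 group means and a shared spread. Calls needed an adjusted p (Benjamini-Hochberg) under 0.05. Errors of log2 fold changes are standard errors. edgeR 4.0.16 and DESeq2 1.42.0 were run on the recovered reads as alternatives, and the test was checked on simulated data. Deviations from the group means of same-numbered libraries correlated at 0.15 to 0.57 in all 6 numbers between the lobes. The highest correlation of an embolized library with another number was 0.13 to 0.34. The numbers were taken to pair the lobes, a reading of the values that no label states. Of the 6 embolized libraries, 4 matched their own number best. Genes with an ID in the text were the 2 largest rises and falls among called genes with a mean of at least 500 and 1 sign in all 6 numbers. Libraries were thinned to the shallowest total to count detected genes. The libraries compared, the gene classes and the rules were chosen with earlier results of these data known. Gene lists by symbol were not used, since 0 IDs had a symbol.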

Additional observations from a re-analysis of the deposited data

Results flagged for a closer look

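Of the 36 groups of 6 values examined for a library far from the rest, 1 stood out, where chance alone flags about 1 in 20. ENSOCUG00000016538 was at 241 normalized counts in embolized obeticholic acid replicate 4, the highest of that group, whose median was 95.5. The group is not part of the comparison under vehicle.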

How the results depend on the processing

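Under the 28 alternatives tried, the 4 genes named by ID kept their direction and their call. The rule that picked them from these same libraries made this likely. Sample quality weights raised the calls to 3345, of which 1620 were higher in the embolized lobe, and equal totals gave 566 higher genes; the cause of either shift was not tested. Replicates 1 to 3 alone gave 1105 calls (447 higher, 658 lower), and replicates 4 to 6 alone gave 566 (184 higher, 382 lower); both use fewer libraries. Leaving out 1 library gave 1709 to 2491 calls, 726 to 1130 of them higher and 982 to 1361 lower. The replicate block gave 2684 calls and, with only the 12 vehicle libraries, 2691; it changed no call of the named genes or library measures. Ileum-enriched genes called higher were 12.3% with equal totals and 13.6% when the class was set at 4-fold. With both changes 142 were higher and 149 lower, or 6.995% and 7.34%. The number called higher was 86 to 149 without 1 library, 53 in replicates 1 to 3 and 24 in replicates 4 to 6, and those that rose at least 4-fold were 14 with a pseudocount of 5 and 9 with at least 10 in all 12 libraries, against 37; the joint change and these numbers were chosen after seeing the data. The 6 library measures did not pass in any alternative; with 3 libraries per lobe a pass is out of reach. Depth limits genes of low count, where standard errors were largest.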
